A study of Mus musculus with 32 samples.

Results

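The radiation response of thymocytes from mice carrying codon 72 alleles of p53 was set against that of thymocytes from p53+/+ mice, gene by gene. The response of a gene is its log2 level in irradiated arrays minus its level in untreated arrays, where a level is the log2 processed intensity of its probe relative to the 75th percentile of that array. The quantity described here is the response of the P72 and R72 arrays combined, minus the response of the p53+/+ arrays. These groups hold 28 of the 32 arrays of the series. All 4 genotypes were C57Bl/6 mice of 6 weeks, either left untreated (0 h) or exposed to 5 Gy of gamma radiation from a cesium-137 source and taken 2 h or 4 h later. P72 and R72, called knock-in here, had 4 arrays at each time, from 4 independent experiments per the series' design text. For p53+/+ there were 2 untreated arrays and a single array at each of 2 h and 4 h, and the p53-/- set had the same numbers and is given only beside other values. The labels give 2 mice per time point, 1 male and 1 female, and the design text states that the thymocytes of the mice of a genotype were pooled.

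Several features of the design limit the comparison. The p53+/+ arrays have no experiment number to set against those of the knock-in arrays, and nothing says that the 2 untreated p53+/+ arrays came from separate mice, so their spread may be technical. The knock-in and p53+/+ arrays were on different slides and were scanned in different sets, so the tests compare responses, each taken within its own set, and levels of the sets set side by side are descriptions. The labels name the alleles only as P72 and R72. Codon 72 alleles have been studied in mice in which part of Trp53 was replaced by human sequence, and the sequence of the alleles was not examined here. In bulk RNA, fewer cells of a type and less RNA per cell cannot be told apart.

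p53 is a transcription factor that is stabilised after DNA double-strand breaks and binds a pair of adjoining half-sites in its target genes. Thymocytes are among the cells in which this response leads to apoptosis, through targets such as Bbc3, Pmaip1 and Bax, while other targets arrest the cell cycle (Cdkn1a), limit p53 itself (Mdm2, Ccng1) or serve DNA repair and metabolism. At codon 72 the human protein carries either proline or arginine, in a proline-rich stretch outside the DNA-binding domain, and the 2 forms have been compared for apoptosis and for the activation of immune and inflammatory genes. The question set by this comparison is which radiation-responsive genes behave alike in the knock-in and in the p53+/+ thymocytes, and which do not.

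The promoters of RefSeq (build GRCm38.p6, 250 bases before to 50 bases after each start) were searched for the p53 consensus. It was taken as 2 adjoining half-sites of 10 bases with no spacer. The fixed C and G of each half-site had to be intact. At most 2 mismatches were allowed at the other letters, those between the C and the G included. The consensus is its own reverse complement, so that 1 search covers both strands. The windows below show the matched 20 bases in capitals with 20 bases on each side, in the direction of the gene, for 2 targets whose difference between the sets was not called (Cdkn1a and Ccng1) and for the 3 genes with a called difference that held a match.
Cdkn1a: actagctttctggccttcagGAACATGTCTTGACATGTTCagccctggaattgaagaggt
Ccng1: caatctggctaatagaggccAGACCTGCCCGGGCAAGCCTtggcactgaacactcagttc
Zfp365: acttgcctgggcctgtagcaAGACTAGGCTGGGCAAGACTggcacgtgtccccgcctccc
Calhm2: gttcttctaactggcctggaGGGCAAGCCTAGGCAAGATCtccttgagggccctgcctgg
S100a3: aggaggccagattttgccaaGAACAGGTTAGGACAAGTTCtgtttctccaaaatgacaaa
The windows lie at chr17:29090908-29090967 (plus strand) for Cdkn1a, chr11:40755442-40755501 (minus) for Ccng1, chr10:67912686-67912745 (minus) for Zfp365, chr19:47138431-47138490 (minus) for Calhm2 and chr3:90588429-90588488 (plus) for S100a3. The matches of Cdkn1a, Ccng1 and Calhm2 had 1 mismatch and those of Zfp365 and S100a3 had 2. Of all 32851 promoters, 107 (0.326%) held such a match, and of the 11552 tested genes with a promoter in the table, 54 (0.467%). Among the genes with a called difference, described below, 2 of 78 with a promoter held a match where the knock-in response was lower and 1 of 20 where it was higher. These matches describe the letters of a short window and were not tested as binding sites.

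Across the arrays used, the 75th percentile of the processed intensity lay between 260.43 and 1017, and the share of probes well above background lay between 52.22% and 71.2%. Markers of double positive thymocytes, the main cells of the thymus, had a summed level between 10.15 and 10.67 (log2) on every knock-in array and between 10.37 and 10.54 on every p53+/+ array. The probe chosen for Trp53 does not read the codon 72 allele. It was at 0.10 to 0.38 on the untreated knock-in arrays (median 0.21) and at -0.71 to 0.53 on the irradiated ones (median 0.33). The p53+/+ arrays were at -0.11 and 0.26 untreated, 0.04 at 2 h and 0.09 at 4 h. The p53-/- arrays were at -0.25 and -0.09 untreated, -0.48 at 2 h and -0.45 at 4 h. These were close to the other groups, so that this probe does not check the genotype labels. A dimmer Trp53 probe had responses of 1.47 in the knock-in and 0.10 in p53+/+. Its difference was 1.36, against 0.02 for the chosen probe. The response of Bbc3, the p53 target that encodes Puma, set only p53-/- apart. It was 3.36 in the knock-in, 3.29 in p53+/+ and 0.03 in p53-/-, so it does not check the knock-in labels against p53+/+.

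Some libraries stood apart from their labels in ways that touch the comparison. Xist, transcribed from the inactive X chromosome, and Ddx3y, a gene of the Y chromosome, were each near one of 2 levels in the knock-in. In replicates 1 and 3 of P72 and R72 at every time, Xist was at -3.70 or lower and Ddx3y at 1.45 or higher, and in replicates 2 and 4 Xist was at 5.12 or higher and Ddx3y at -5.15 or lower. Each knock-in array thus read as one sex and not as a mixture, and both kinds were present equally at each time. In the p53+/+ set the sexes were not balanced over time. Xist was at -0.87 and -1.44 on the untreated p53+/+ arrays and at 5.52 and 5.53 at 2 h and 4 h, while Ddx3y was at 2.05 and 2.08 untreated and at -6.81 and -7.67 at 2 h and 4 h. The untreated p53+/+ arrays therefore held Y-linked RNA that the irradiated p53+/+ arrays lacked, and sex and radiation cannot be told apart within that set. All 4 p53-/- arrays had Xist at -7.18 or lower.

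H60 marks a second way in which the untreated p53+/+ arrays stood apart. H60 encodes a cell surface ligand of the NKG2D receptor of natural killer cells. Its level was 0.30 to 1.82 on the untreated knock-in arrays (median 1.11) and -0.10 to 2.08 on the irradiated ones (median 1.25). The p53+/+ arrays were at -6.47 and -8.01 untreated, not well above background, and at 1.31 at 2 h and 1.37 at 4 h. The p53-/- arrays lay between -8.60 and -7.51 at all times. The irradiated p53+/+ arrays were thus within the range of the knock-in arrays, while the untreated p53+/+ arrays were with the p53-/- arrays. The fitted difference of responses was -8.49 ± 0.59 (SE) with a limma adjusted p of 2.28e-08, and as a bound the rise in p53+/+ was at least 103-fold. The other H60 probe gave a difference of -2.80.

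**Figure D1:**
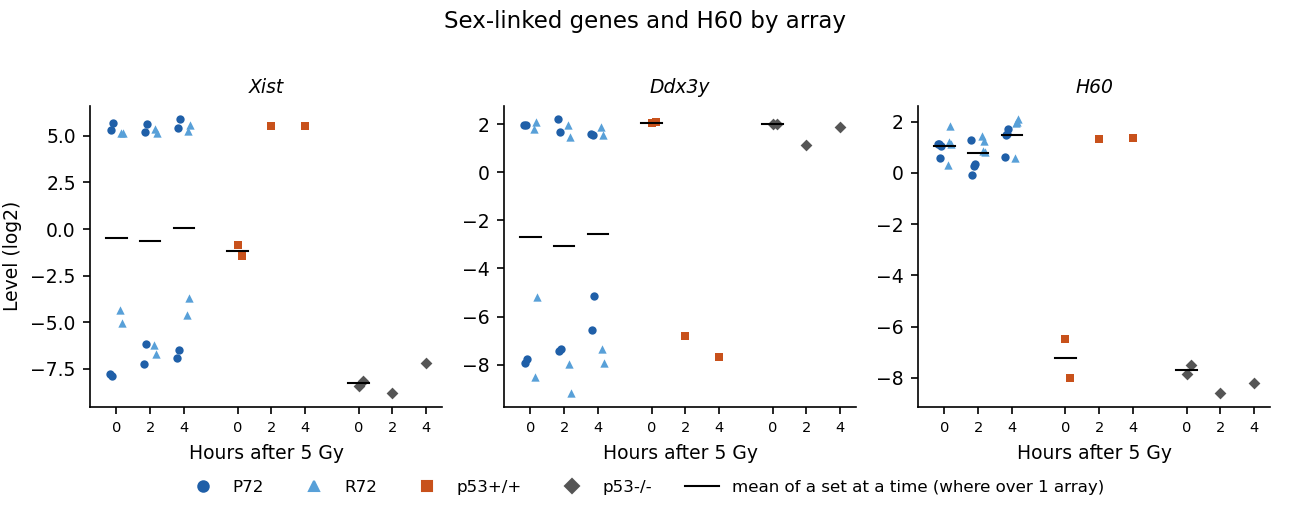
Levels of Xist, Ddx3y and H60 (log2 intensity relative to the array's 75th percentile) against hours after 5 Gy, 1 point per array, with a line at the mean of a set at a time where it has over 1 array. The untreated p53+/+ arrays had Ddx3y at 2.05 and 2.08 and H60 at -6.47 and -8.01, and the irradiated p53+/+ arrays had Ddx3y at -6.81 and -7.67 and H60 at 1.31 and 1.37.

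Most genes of the radiation response moved the same way in both sets, and a small group rose less in the knock-in. Of 20391 genes tested by limma with Benjamini-Hochberg adjustment (threshold 0.05), 155 (0.76%) differed between the sets, 123 (0.603%) with a lower response in the knock-in and 32 (0.157%) with a higher one. By itself, the knock-in response called 12042 genes (59.1%), 7651 up (37.5%) and 4391 down (21.5%). The p53+/+ response called 4460 (21.9%), 2604 up (12.8%) and 1856 down (9.1%). The sets differ in number of arrays, and the median SE of a response was 0.10 in the knock-in and 0.23 in p53+/+, and 0.25 for the difference. Each gene's SE comes from a spread shared by all groups, to which the single p53+/+ arrays at 2 h and 4 h add nothing. The SEs of p53+/+ thus do not measure the spread of that set alone. An unadjusted p under 0.05 was reached by 2060 genes for the difference. Where an irradiated p53+/+ array is left out, here and below, the difference and the p53+/+ response are taken at the remaining time alone. Leaving out the one at 4 h thus gives the 2 h comparison, and leaving out the one at 2 h gives the 4 h comparison. Without the p53+/+ array at 4 h the 155 called differences became 48, of which 45 were among the 155. They became 71 without the p53+/+ array at 2 h, and 71 without the second untreated p53+/+ array. The 4460 genes of the p53+/+ response became 1042 without its array at 4 h, and 2552 and 2273 without its first and second untreated arrays. Of the 155, 24 stayed called whichever of the 4 p53+/+ arrays was left out. Among the genes named here these were H60, Fn3krp, St6galnac2, Robo3, Zfp365, Mst1r, Cox6b2, Kank3, Slc19a2, Cad, Polk, Aaas, Lpin1, Ercc5 and Bfsp2, and every other called gene named here lost its call without at least 1 of them. With the level of Xist as a covariate 135 were called, 127 of them among the 155.

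The 2831 genes called up by more than 2-fold in the knock-in had a median response of 1.38 there and 1.22 in p53+/+, where 97.1% had the same sign. The 1706 genes called up by more than 2-fold in p53+/+ had a median of 1.57 there and 1.13 in the knock-in, where 98.2% had the same sign. The 186 genes called down by more than 2-fold in p53+/+ had a median of -1.24 there and -0.69 in the knock-in, where 92.5% had the same sign. For the 92 called down by more than 2-fold in the knock-in the medians were -1.20 there and -1.05 in p53+/+, with 97.8% of the same sign. The median in the set that chose the genes is raised by that choice. Across all genes the responses had a Pearson correlation of 0.761 and a Spearman correlation of 0.773, given as a description, since genes are not independent replicates. The median response of all genes was 0.09 in the knock-in and 0.10 in p53+/+.

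**Figure D2:**
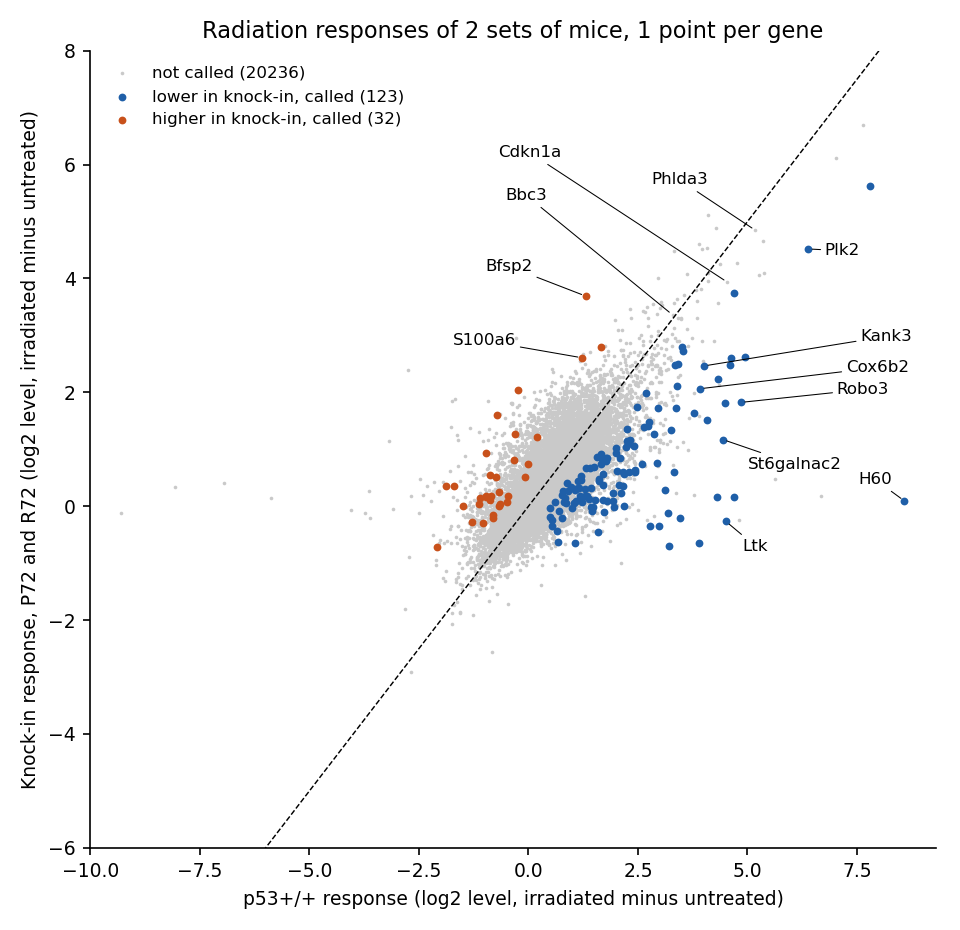
Response of each of 20391 genes (log2, irradiated minus untreated) in p53+/+ on the x axis and in P72 and R72 together on the y axis, with a dashed line of equal responses. The 123 genes with a lower knock-in response lie below the line and the 32 with a higher one above it, while Bbc3 (3.36 against 3.29) and Phlda3 (4.85 against 5.18) lie near it.

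All 123 genes with a lower knock-in response were called up in p53+/+, against 12.8% of all genes. The p53+/+ response is part of the difference that chose them, so this count partly follows from that choice. Of the 123, 79 were also called up in the knock-in (37.5% of all genes were), 36 were not called and 8 were called down (21.5% of all genes). Their median response was 0.45 in the knock-in, 1.96 in p53+/+ and 0.06 in p53-/-, where 7 were called up against 0.746% of all genes. The size of the difference ran from 0.467 to 8.49, with 78 at 2-fold or more. Against 8.23% of all genes with a chromosome, 12 (9.92%) lay on chromosome 11, which carries Trp53.

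For a group of p53-responsive genes the untreated arrays of the sets overlapped in level, and the genes rose in both sets but further in p53+/+. Cox6b2, which encodes the testis form of a cytochrome c oxidase subunit (chromosome 7, 4326339 to 4326398, build mm7 as are all array positions here), was at 0.43 to 0.79 on untreated knock-in arrays (median 0.64) and at 2.23 to 3.09 on irradiated ones (median 2.71). In p53+/+ it was at 0.44 and 0.59 untreated, 3.84 at 2 h and 5.02 at 4 h. The untreated arrays overlapped, and both irradiated p53+/+ arrays were above all 16 irradiated knock-in arrays. The response was 2.06 ± 0.05 (SE) in the knock-in and 3.91 ± 0.11 in p53+/+, a difference of -1.85 ± 0.13 (limma adjusted p = 2.28e-08). It was -1.59 at 2 h and -2.11 at 4 h, and -1.84 in P72 and -1.86 in R72. In p53-/- the response was 0.39.

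Robo3, an axon guidance receptor (chromosome 9, 37344793 to 37344852), was dim when untreated, at -5.09 to -4.46 in the knock-in (median -4.74) and at -4.84 and -5.12 in p53+/+. It was at -3.66 to -2.20 on irradiated knock-in arrays (median -2.89), -0.66 in p53+/+ at 2 h and 0.38 at 4 h. The 2 irradiated p53+/+ arrays stood above every other array. The difference was -3.02 ± 0.28 (limma adjusted p = 3.76e-06), and the other Robo3 probe gave -3.12. All 4 p53-/- arrays were between -5.01 and -4.73. One of the untreated p53+/+ arrays was not above background for this probe.

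Kank3, named here after its values were seen, encodes a protein of the cytoskeleton (chromosome 17, 31896737 to 31896796). Its level was -2.06 to -1.33 untreated in the knock-in (median -1.49) and 0.42 to 1.34 after radiation (median 0.93). In p53+/+ it was at -1.87 and -1.71 untreated, 2.29 at 2 h and 2.14 at 4 h, above all irradiated knock-in arrays. The responses were 2.46 and 4.01, a difference of -1.54 ± 0.18 (limma adjusted p = 9.28e-05). In p53-/- it was at -1.67 and -1.50 untreated, -0.66 at 2 h and -0.78 at 4 h.

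**Figure D3:**
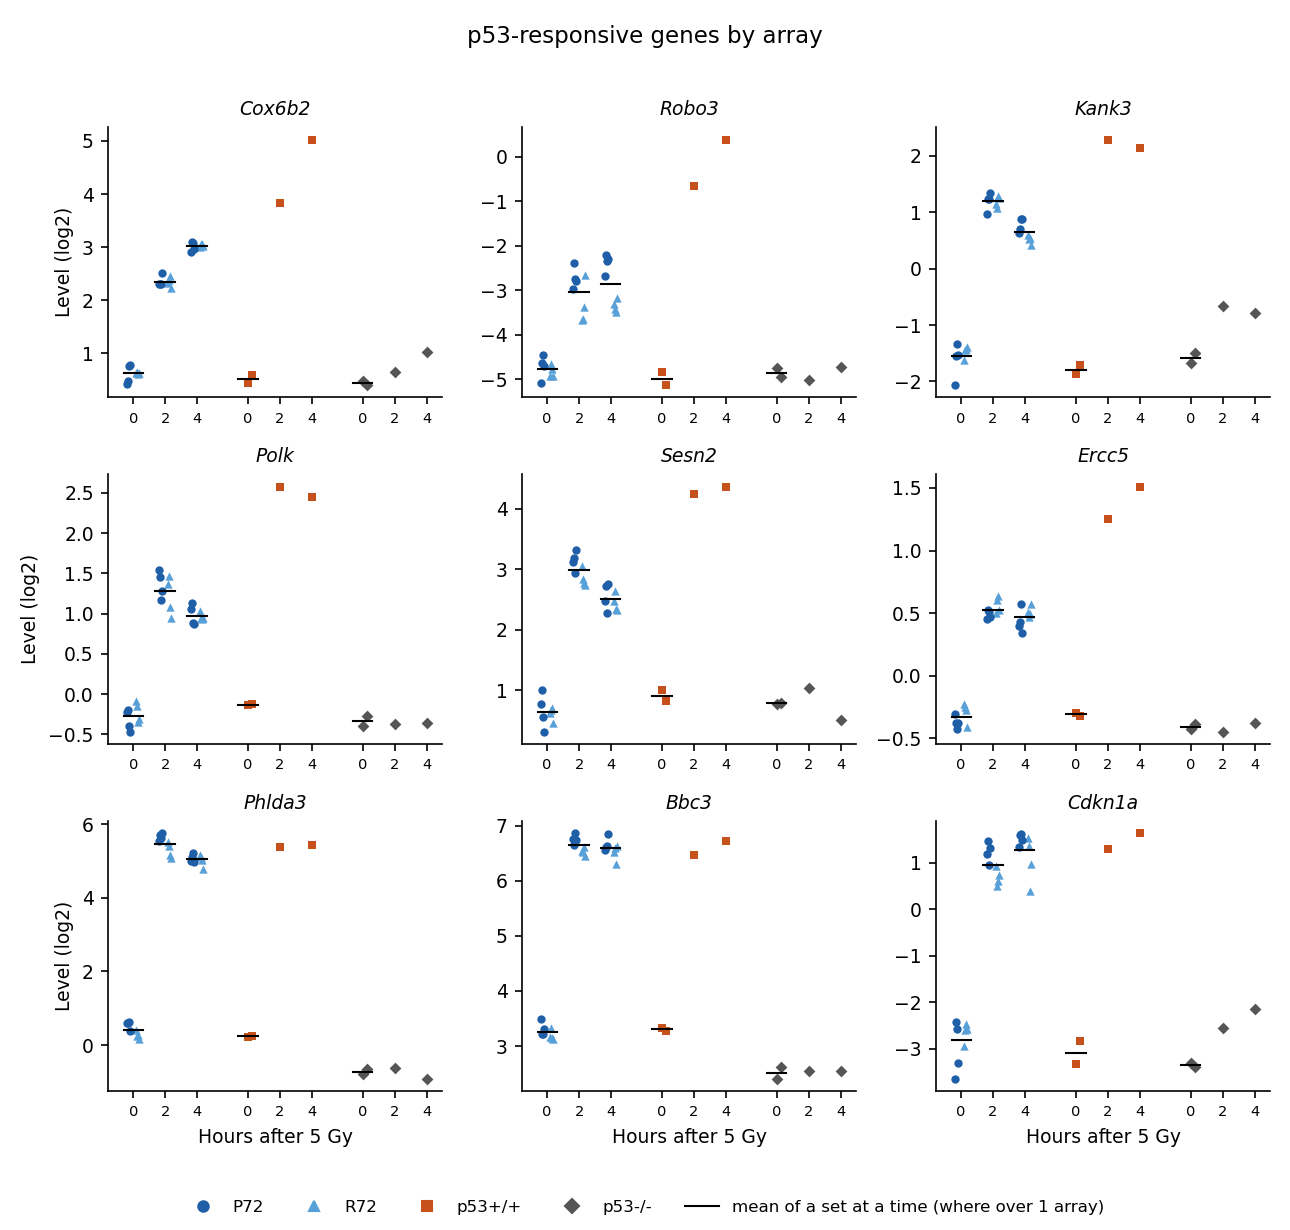
Levels of 9 p53-responsive genes (log2 intensity relative to the array's 75th percentile) against hours after 5 Gy, 1 point per array, with a line at the mean of a set at a time where it has over 1 array. For Cox6b2, Robo3, Kank3, Polk, Sesn2 and Ercc5 both irradiated p53+/+ arrays were above all irradiated knock-in arrays, while for Bbc3 and Phlda3 they lay among them.

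DNA repair was represented by Polk and Ercc5. Polk encodes a translesion DNA polymerase. It was at -0.47 to -0.08 untreated in the knock-in (median -0.27) and at 0.87 to 1.54 after radiation (median 1.07). Untreated p53+/+ arrays were at -0.14 and -0.13, and irradiated ones at 2.58 (2 h) and 2.44 (4 h). Again the untreated arrays overlapped and the irradiated ones did not. The responses were 1.40 and 2.64, a difference of -1.24 ± 0.17 (limma adjusted p = 0.00042), and a second Polk probe gave -1.46. Ercc5, the endonuclease of nucleotide excision repair also known as Xpg, rose in both sets. It was at -0.42 to -0.23 and then 0.34 to 0.64 in the knock-in, and at -0.30 and -0.32, then 1.25 and 1.51, in p53+/+. The responses were 0.83 and 1.69, a difference of -0.86 ± 0.09 (limma adjusted p = 4.49e-05).

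Sesn2 encodes sestrin 2, an inhibitor of mTORC1 signalling. Its level was 0.32 to 1.01 in untreated knock-in arrays (median 0.65) and 2.28 to 3.31 in irradiated ones (median 2.74). It was at 1.00 and 0.82 untreated in p53+/+, 4.24 at 2 h and 4.36 at 4 h. The difference was -1.29 ± 0.20 (limma adjusted p = 0.0024), and a second probe gave -1.10. This call was lost without the p53+/+ array at 4 h and with only the knock-in arrays of the second scan set. Lpin1, a phosphatidate phosphatase of lipid synthesis, was at 0.19 to 0.71 and then 0.95 to 1.59 in the knock-in, and at 0.66 and 0.57, then 2.39 and 2.41, in p53+/+. The responses were 0.85 and 1.79, a difference of -0.94 ± 0.11 (limma adjusted p = 0.000144), and its 3 other probes gave -0.94, -0.91 and -0.94. Slc19a2, a thiamine transporter, and Aaas, a nuclear pore protein, were named after their values were seen. Slc19a2 rose by 1.42 in the knock-in and 2.73 in p53+/+, and Aaas by 1.14 and 2.25, both with a limma adjusted p of 0.000145 for the difference. Fuca1, a lysosomal fucosidase also named after its values were seen, rose by 1.05 and 2.23 (limma adjusted p = 0.00471). The untreated arrays of the sets did not overlap for Slc19a2 and Fuca1, and for Fuca1 p53+/+ minus knock-in was -0.54 untreated and 0.64 irradiated.

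Apoptosis and checkpoint targets with a called difference were Tnfrsf10b, Aen, Ei24, Plk2 and Psrc1. Tnfrsf10b, the death receptor of Trail, was at -6.03 to -4.95 and then -3.97 to -3.29 in the knock-in, and at -5.44 and -5.03, then -2.50 and -2.06, in p53+/+. Its difference of -1.23 ± 0.25 (limma adjusted p = 0.0169) was lost under 7 of the 43 other settings that measured it, among them the omission of the p53+/+ array at 2 h, the one at 4 h or the first untreated one. Aen, a nuclease that acts in apoptosis, rose by 2.49 and 3.35, a difference of -0.86 ± 0.15 (limma adjusted p = 0.00556). Its call was lost under 7 of 44 other settings, among them the omission of the p53+/+ array at 4 h, median centring and each scan set alone, and a dimmer probe of the gene gave -0.22. Isg20l1, an older name of Aen in the files, was counted as a separate gene among the 155, with a difference of -0.92 (limma adjusted p = 0.00548). Ei24, an endoplasmic reticulum protein, differed by -0.71 ± 0.14 (limma adjusted p = 0.0152), a call lost without either untreated p53+/+ array or the one at 4 h. Plk2, a kinase of the centrosome cycle, had large responses in both sets. It was at -6.45 to -4.52 untreated in the knock-in and -1.23 to -0.27 after radiation, and in p53+/+ at -5.20 and -4.34, then 1.48 and 1.74. The irradiated p53+/+ arrays were again above the knock-in ones, but the spread was wide, and the difference of -1.86 ± 0.44 (limma adjusted p = 0.0497) was lost under 30 of 43 other settings. Psrc1, a spindle protein, rose by 2.73 and 3.52, a difference of -0.80 ± 0.18 (limma adjusted p = 0.0427) that was lost under 24 of 44 settings.

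Zfp365 and Calhm2, whose promoter matches are printed above, were named for those matches. Zfp365, a zinc finger protein with roles in genome stability, was at -6.87 to -5.34 untreated in the knock-in (median -6.18) and -4.47 to -3.13 after radiation (median -3.63). In p53+/+ it was at -6.79 and -6.85 untreated, not well above background, and at -2.17 at 2 h and -2.28 at 4 h, a rise of at least 8.69-fold. The fitted difference was -2.11 (limma adjusted p = 0.00198). This Zfp365 call was lost under 4 of 43 other settings, among them slide as a fixed block and normexp background correction, and the difference was as small as -0.92. In p53-/- Zfp365 also had a fitted response of 1.37, from a mean level of -7.44 untreated to -6.08 irradiated. Calhm2, a membrane channel protein, was at -1.24 to -0.82 and then -0.57 to 0.57 in the knock-in, and at -0.81 and -1.17, then 1.21 and 0.79, in p53+/+. Its responses were 0.94 and 1.99, a difference of -1.05 ± 0.20 (limma adjusted p = 0.0105). This call was lost under 6 of 44 other settings, among them slide as a fixed block, each scan set alone, and the omission of the p53+/+ array at 4 h or of the second untreated one. Other dim genes were known only by a bound on 1 side. Cpt1c, a brain form of carnitine palmitoyltransferase, rose by at least 6.5-fold in p53+/+ and at least 1.44-fold in the knock-in. Ddit4l rose by at least 5.59-fold in p53+/+. The calls of Cpt1c and Ddit4l were lost without the p53+/+ array at 4 h or the second untreated one, and that of Ddit4l also without the one at 2 h.

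Further genes measured on all sides had a lower knock-in response. Mcam, an adhesion molecule, was at -0.54 to -0.06 and then 0.48 to 1.84 in the knock-in, and at -0.19 and -0.02, then 3.30 and 2.99, in p53+/+ (difference -1.91, limma adjusted p = 0.00642). Mst1r, the receptor of macrophage-stimulating protein, had a response of -0.02 in the knock-in against 1.96 in p53+/+ (difference -1.97, limma adjusted p = 0.00241). Grb10, an adaptor that inhibits insulin receptor signalling, rose by 0.76 and 2.93, and Azin2, an antizyme inhibitor, by 1.63 and 3.78. The calls of Grb10 and Azin2 were lost without the first untreated p53+/+ array or the one at 4 h, and that of Mcam without the first untreated one or the one at 2 h. Differences for Mtus2 (-2.18), Neurl1a (-1.83), Lats1 (-3.33) and Trim6 (-2.71) were also called, and for these 4 the untreated arrays of the sets did not overlap, the p53+/+ ones being lower. Mtus2, Neurl1a and Lats1 were not called in the knock-in, with responses of 0.01, 0.09 and -0.35. The Mtus2 call was lost under 11 of 43 other settings, including the omission of each p53+/+ array, and the Neurl1a call under 8, including that of each p53+/+ array but the second untreated one. Trim6 was not called without the first untreated one. Another probe of Trim6 and the other probe of Neurl1a gave the opposite sign, and the Lats1 call was lost under 19 of 43 settings, including the omission of each p53+/+ array. Over all 155 called genes, 54 had another probe, and 70 of these 82 probes had the sign of the chosen one.

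The canonical targets were not called for the difference by the same test, which alone does not show that they responded alike. Cdkn1a, the cyclin-dependent kinase inhibitor p21, was at -3.64 to -2.43 untreated in the knock-in and 0.39 to 1.61 after radiation. In p53+/+ it was at -3.33 and -2.83, then 1.29 and 1.63, within or just above that range. The difference was -0.61 ± 0.37 (95% interval -1.37 to 0.15, limma adjusted p = 0.61). Bbc3 was at 3.13 to 3.50 and then 6.31 to 6.86 in the knock-in, and at 3.33 and 3.28, then 6.46 and 6.72, in p53+/+. Its difference of 0.07 ± 0.13 had a 95% interval of -0.20 to 0.34, so a difference as large as that of Cox6b2 lies outside it. Phlda3, an inhibitor of Akt, rose by 4.85 and 5.18 from a level near 0.40 in the knock-in and near 0.23 in p53+/+. Its interval ran from -0.65 to -0.02 (limma adjusted p = 0.464).

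Among the other targets fixed in the list of names, the sign of the fitted difference was mixed for the chosen probes. Bax, which permeabilises mitochondria, rose by 2.19 and 2.56, with an interval for the difference of -0.72 to -0.03 (limma adjusted p = 0.452). Pmaip1, which encodes Noxa, rose by 2.96 and 3.73 (interval -1.36 to -0.17, limma adjusted p = 0.321). Ccng1 rose by 2.49 and 2.80 (interval -0.66 to 0.04, limma adjusted p = 0.556). For Pmaip1 and Ccng1 the irradiated arrays of the sets did not overlap in level, and for Ccng1 neither did the untreated ones. Mdm2, the ubiquitin ligase of p53, rose by 0.80 and 0.60 (interval -0.18 to 0.57, limma adjusted p = 0.772). Fas, a death receptor, rose by 0.76 and 0.58 (interval -0.13 to 0.47, limma adjusted p = 0.743). The other probes of Mdm2 and Fas gave differences of the opposite sign, -0.12 and -0.15. Gdf15, a secreted stress cytokine outside that fixed set, had the larger fitted response in the knock-in, at 4.48 against 3.32 (interval 0.31 to 2.03, limma adjusted p = 0.283). The intervals of Pmaip1, Bax, Phlda3 and Gdf15 excluded 0 before adjustment over all genes.

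Over the p53 target lists, most members were not called. Of 20 apoptosis targets tested, 3 had a lower knock-in response and 0 a higher one, with 15 below 0 and a median difference of -0.16. Of 26 targets of arrest, repair and feedback, 5 were lower and 0 higher, with a median of -0.03. Of 21 metabolic and other targets, 2 were lower and 0 higher, with a median of -0.07. Across all genes the median difference was 0.03, 0.603% were called lower and 46% lay below 0. The median of the arrest list was 0.01 after centring on array medians and 0.06 with only probes above background on all arrays. These lists were chosen with results of these data known and are not independent evidence of a direction.

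In a further group of the 123 genes the sets differed mainly before radiation. Because the fitted value is a difference of differences, a lower response can come from a gap between the sets in the untreated or in the irradiated arrays, and the sets sit on different slides, so these gaps are descriptions. The gap was larger among irradiated arrays for 81 of the 123, with a median p53+/+ minus knock-in of 1.04 irradiated and -0.14 untreated, and 62 of them were up in both sets. It was larger among untreated arrays for the other 42, with a median of -1.28 untreated and 0.32 irradiated. Of all genes, 58.6% had the larger gap untreated.

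**Figure D4:**
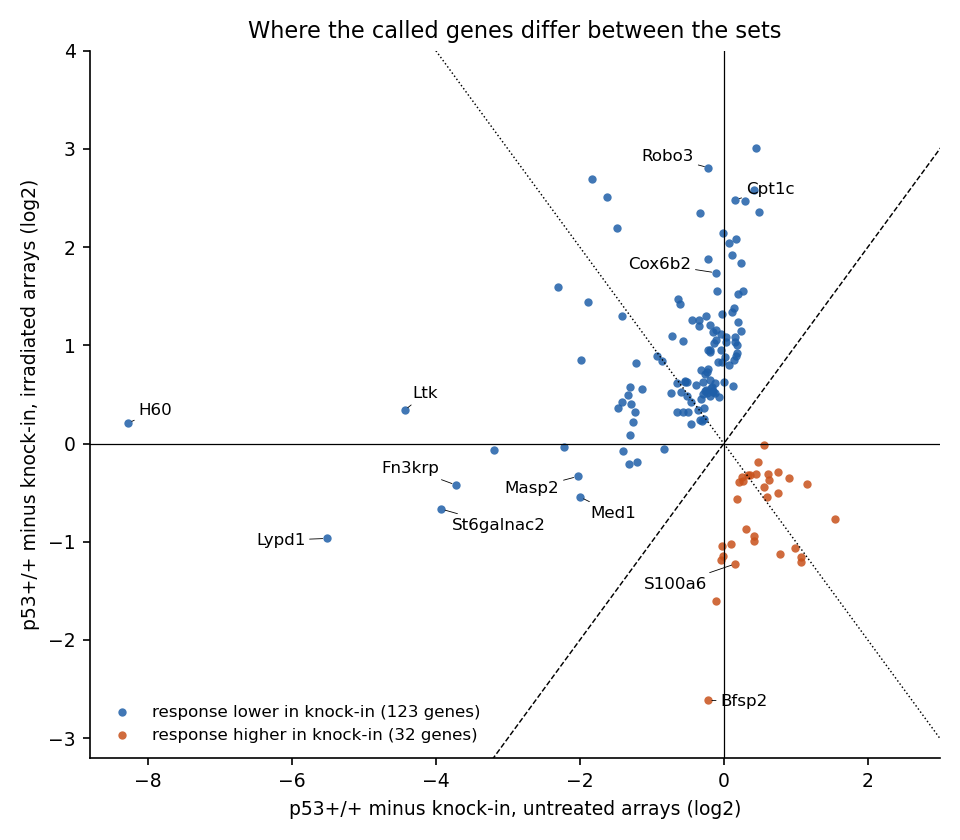
Level in p53+/+ minus level in the knock-in (log2) for the 155 called genes, in untreated arrays on the x axis and in irradiated arrays on the y axis, with dotted and dashed lines where both gaps have the same size. Genes such as Robo3 and Cox6b2 lie near 0 on the x axis, while H60, St6galnac2, Ltk and Fn3krp lie far to the left, where the untreated p53+/+ arrays were lower.

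St6galnac2, a sialyltransferase, showed this second pattern. It was at 0.11 to 1.66 on untreated knock-in arrays (median 1.13) and at 1.02 to 2.79 on irradiated ones (median 2.26). The p53+/+ arrays were at -3.02 and -2.75 untreated and at 1.55 at both 2 h and 4 h, and the p53-/- arrays at 0.29 to 0.51 throughout. The untreated p53+/+ arrays were thus the 2 lowest, and the difference was -3.26 ± 0.41 (limma adjusted p = 0.000145). The other St6galnac2 probes gave smaller differences of -1.78 and -1.51. Ltk, a receptor tyrosine kinase, was at -6.56 and -6.91 on untreated p53+/+ arrays, not well above background, and at -2.01 and -2.44 after radiation, a rise of at least 8.7-fold. Its knock-in medians were -2.09 untreated and -2.40 irradiated. Fn3krp, a kinase that removes sugars from glycated proteins, was not well above background on the untreated p53+/+ arrays (-6.46 and -6.25) and was at -3.41 and -2.94 after radiation, a rise of at least 4.5-fold, against knock-in medians of -2.48 and -2.62. The p53-/- arrays were at -3.21 to -2.86 for Fn3krp, near the knock-in, and at -6.22 to -5.55 for Ltk, away from it. Lypd1 rose by at least 5.92-fold in p53+/+ and was not called in the knock-in. The calls of Ltk and Lypd1 were lost without any 1 of the 4 p53+/+ arrays.

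Med1, a subunit of the Mediator complex, was at 3.61 to 4.02 on untreated knock-in arrays and 3.37 to 4.06 on irradiated ones. It was at 2.30 and 1.40 on untreated p53+/+ arrays and at 3.35 and 3.22 after radiation, a difference of -1.46 ± 0.24 (limma adjusted p = 0.00291). Its 2 other probes gave differences of 0.38 and 0.15, so that this pattern was seen with 1 probe of the 3, and the call was lost without the second untreated p53+/+ array. The part that the sex of the mice or their genetic background has in this group was not tested gene by gene. With the X and Y chromosomes left out, 156 differences were called over the remaining genes.

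Cad was among the 8 genes called down in the knock-in and up in p53+/+. Cad, the enzyme that begins pyrimidine synthesis, was at 1.53 to 2.14 untreated (median 1.82) and 0.68 to 1.70 irradiated (median 1.20) in the knock-in. In p53+/+ it was at 1.66 and 1.73 untreated, 2.60 at 2 h and 2.12 at 4 h, above every irradiated knock-in array. The responses were -0.62 and 0.67, a difference of -1.29 ± 0.15 (limma adjusted p = 9.28e-05). Asns, asparagine synthetase, had a response of 0.12 in the knock-in and 1.51 in p53+/+ (limma adjusted p = 0.00471), but its untreated knock-in arrays already spread from -2.51 to 1.06. In p53-/- the Asns response was 1.44. Tef, a clock-controlled transcription factor, rose by 0.15 and 0.83 (limma adjusted p = 0.0369).

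The 32 genes with a higher knock-in response had a median response of 0.22 in the knock-in, -0.77 in p53+/+ and -0.04 in p53-/-. In p53+/+ 22 were called down (9.1% of all genes were) and 3 up (12.8% of all genes). These counts partly follow from the choice by a difference that contains the p53+/+ response. In the knock-in 15 were called up (37.5% of all genes), 5 down (21.5% of all genes) and 12 not at all. The difference was at least 2-fold for 20 of the 32. Bfsp2, a filament protein of the eye lens (chromosome 9, 103139510 to 103139539), was at -1.68 to -1.21 on untreated knock-in arrays (median -1.35) and at 1.03 to 3.50 on irradiated ones (median 2.21). In p53+/+ it was at -1.65 on both untreated arrays, -0.43 at 2 h and -0.27 at 4 h, below all irradiated knock-in arrays. The responses were 3.69 ± 0.11 and 1.30 ± 0.27, a difference of 2.39 ± 0.29 (limma adjusted p = 0.000138), which was 1.78 at 2 h and 3.00 at 4 h. One other probe gave 2.08 and another -0.74. In p53-/- the Bfsp2 response was -0.29.

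The S100 genes S100a6 and S100a3, calcium-binding proteins encoded close together on chromosome 3, also rose further in the knock-in. S100a6 was at 0.90 to 1.41 and then 2.72 to 4.73 in the knock-in, and at 1.28 and 1.32, then 2.05 and 2.99, in p53+/+. The p53+/+ array at 2 h was below all irradiated knock-in arrays, and the one at 4 h was within their range. The difference was 1.39 ± 0.22 (limma adjusted p = 0.00204), a call lost without the p53+/+ array at 4 h and with slide as a fixed block. S100a3, whose promoter match is printed above, was at -3.10 to -2.46 and then -0.75 to 0.72 in the knock-in, and at -2.89 and -2.79, then -1.35 and -1.03, in p53+/+. The irradiated p53+/+ arrays were below all irradiated knock-in arrays, and the difference was 1.15 ± 0.23 (limma adjusted p = 0.0136), a call lost without either untreated p53+/+ array or the one at 4 h. Scd2, a fatty acid desaturase, rose by 1.21 in the knock-in and had a response of 0.19 in p53+/+ (limma adjusted p = 0.000988), a call lost without the p53+/+ array at 4 h.

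For several of the higher genes the fitted responses of the sets had opposite signs. Zc3h12d, an RNase that limits inflammatory transcripts, had responses of 0.93 and -0.97 (limma adjusted p = 0.00347). Spry2, an inhibitor of growth factor signalling, had 0.51 and -0.74 (limma adjusted p = 0.0114), though another probe gave a difference of 0.06. Mfap4, a matrix protein, had 2.04 and -0.24 (limma adjusted p = 0.0176), but its p53+/+ arrays ran from -6.62 at 2 h to -3.86 at 4 h, around the untreated values of -4.63 and -5.38. Ddr1, a collagen receptor, had 0.81 and -0.32 (limma adjusted p = 0.00241). For Spry2, Mfap4 and Ddr1 the irradiated p53+/+ arrays overlapped the untreated ones in level. Other called differences were 2.32 for Igk-V38, 2.24 for Klk1b5, 1.49 for Unc5cl, 1.41 for Paqr9, 1.36 for Hrh3 and 1.25 for both Spry2 and Sema4g. Calls were lost without the p53+/+ array at 2 h for Spry2, Mfap4, Ddr1, Klk1b5, Unc5cl, Hrh3 and Sema4g, and without the one at 4 h for Zc3h12d, Igk-V38, Paqr9, Hrh3 and Sema4g. They were lost without the first untreated p53+/+ array for Mfap4, Paqr9, Hrh3 and Sema4g, and without the second for Spry2, Unc5cl, Paqr9, Hrh3 and Sema4g. The Paqr9 difference was -0.05 after normexp background correction.

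Genes of immunity and inflammation, the subject of the study's title, had 0 called differences in the lists examined. Of all 20391 genes, 155 (0.76%) were called and 11015 lay above 0. At so small a share of calls, 0 in lists of this size does not set these genes apart. Of 36 NF-kB targets, 0 were called by limma after adjustment and 7 had an unadjusted p under 0.05, with a median difference of 0.15 and 30 above 0. Tnfaip3, a feedback inhibitor of NF-kB, had a difference of 0.59 (interval 0.25 to 0.93, limma adjusted p = 0.114), and Vcam1, an adhesion molecule, of 0.99 (interval 0.42 to 1.56, limma adjusted p = 0.119). Of 28 chemokines, 0 were called and 2 had an unadjusted p under 0.05, with a median difference of 0.41 that became -0.08 after normexp correction. Ccl2 and Ccl7, which attract monocytes, rose strongly in both sets. Ccl2 was at -5.51 to -3.89 and then -1.57 to 1.37 in the knock-in, and at -4.70 and -4.42, then -1.62 and 0.43, in p53+/+. Its difference was 0.56 (interval -0.37 to 1.49, limma adjusted p = 0.731), and that of Ccl7 was 1.03 (interval -0.04 to 2.11, limma adjusted p = 0.514). These intervals are wide, so that a 2-fold difference of either gene lies within them.

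Casp4, an inflammatory caspase, rose by 1.38 and 1.84 (limma adjusted p = 0.713) and Casp1 by 0.54 and 0.77 (limma adjusted p = 0.837). Il1b rose by 3.61 and 3.84 (limma adjusted p = 0.908), and also had a response of 1.54 in p53-/-. Tnf had responses of 0.68 and 0.49, and Nfkbia, the inhibitor of NF-kB, of 0.20 and 0.06 (limma adjusted p of 0.879 and 0.805). Of 15 inflammasome genes, 20 Toll-like receptor genes and 36 interferon-stimulated genes, 0 were called by limma, with 0, 1 and 1 at an unadjusted p under 0.05. Of 28 immediate early genes 0 were called and 4 had an unadjusted p under 0.05, with 26 above 0 (11015 of all 20391 genes were).

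Cell cycle genes fell in the knock-in, and their fitted responses in p53+/+ were smaller. Of 40 G1/S and replication genes, 34 were called down in the knock-in (21.5% of all genes were) and 5 in p53+/+ (9.1% of all genes), with median responses of -0.51 and -0.17. For the difference 1 was called lower and 9 had an unadjusted p under 0.05, with 38 below 0 against 46% of all genes. Of 40 G2/M genes, 38 were called down in the knock-in and 8 in p53+/+, with medians of -0.65 and -0.32. For the difference 0 were called by limma and 9 had an unadjusted p under 0.05, with 39 below 0. The medians of the difference were -0.26 and -0.34. They ran from -0.29 to -0.20 and from -0.36 to -0.27 over the background, scaling and filter settings and with all 32 arrays. Settings with arrays left out, a block or an account of sex were not among these. At 2 h and 4 h the medians were -0.27 and -0.32 for G1/S, and -0.12 and -0.53 for G2/M. Each of these rests on 1 irradiated p53+/+ array. Ccnb1, the mitotic cyclin, was an exception in size, with -1.87 in the knock-in and -1.74 in p53+/+ (limma adjusted p = 0.915), and Myc had -1.38 and -1.52 (limma adjusted p = 0.962).

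Other lists showed few calls, where 0.76% of all genes were called. Of 19 heat shock genes, 16 were called down in the knock-in (21.5% of all genes were) and 14 in p53+/+ (9.1% of all genes), and 0 called for the difference with 5 at an unadjusted p under 0.05. Of 51 ribosomal protein genes, 0 were called by limma and 2 had an unadjusted p under 0.05, and every one had a 95% interval within 2-fold. The same held for all 42 respiratory chain genes, with 0 at an unadjusted p under 0.05, whereas 62.6% of all genes had an interval within 2-fold. Of 34 DNA break repair genes 0 were called and 7 had an unadjusted p under 0.05, and of 16 glucocorticoid-responsive genes 0 and 3. The lists of the unfolded protein response (Asns), the clock (Tef) and Myc and growth (Cad) each held 1 called gene, lower in the knock-in.

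**Figure D5:**
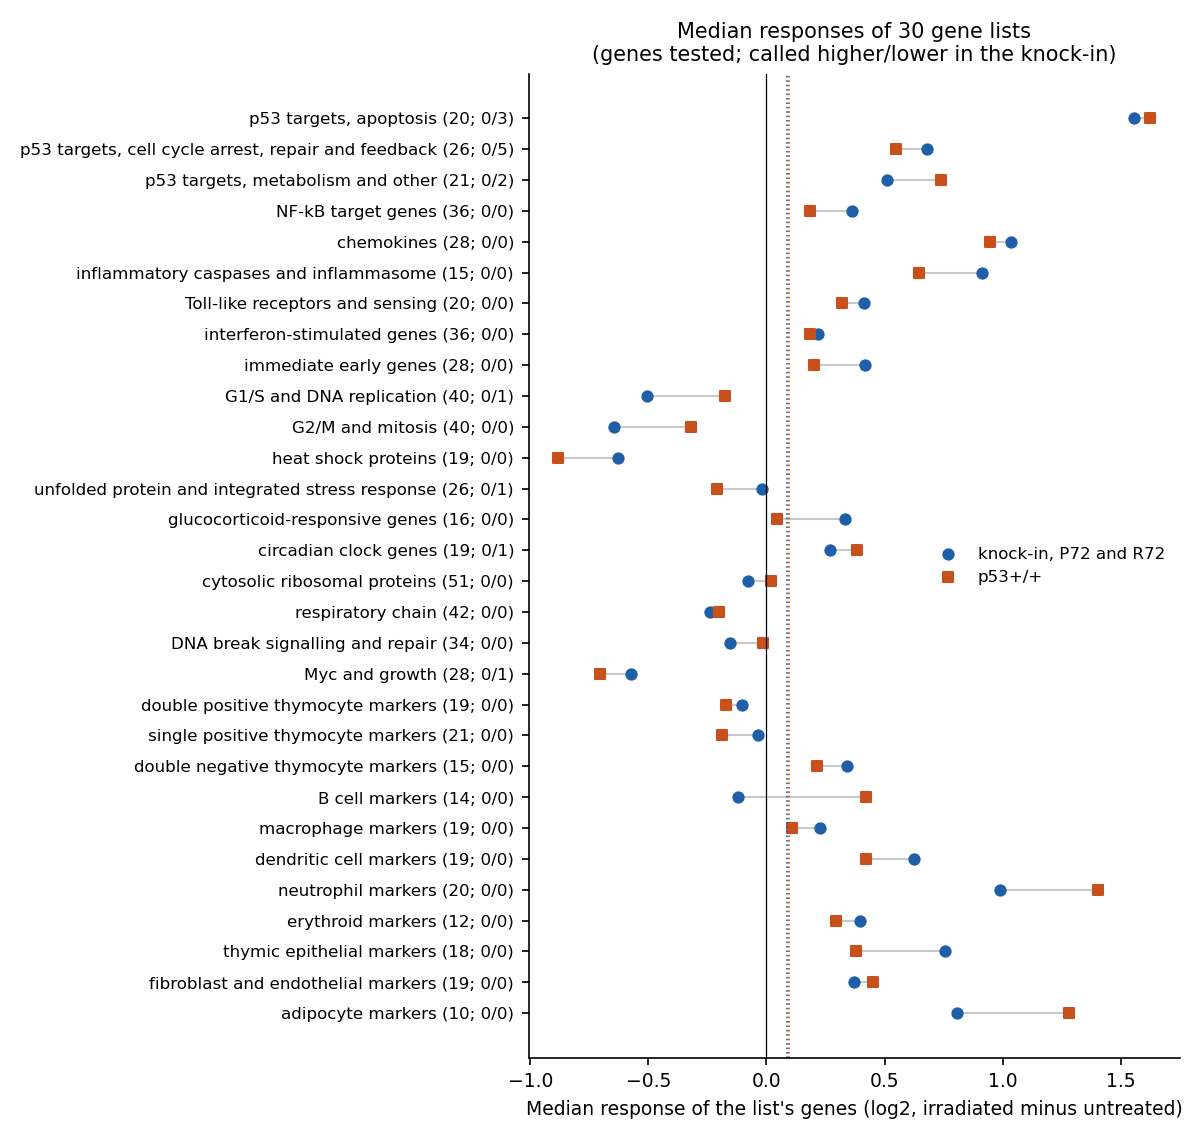
Median response (log2, irradiated minus untreated) of 30 gene lists in the knock-in (circles) and in p53+/+ (squares), with the number of genes tested and the numbers called higher and lower in the knock-in, and dotted lines at the medians of all genes (0.09 and 0.10). The p53 apoptosis targets were at 1.55 and 1.62, and the G2/M genes at -0.65 and -0.32.

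Of the marker lists for cells of the thymus, 0 genes were called for the difference by limma and 0 to 4 per list had an unadjusted p under 0.05. Of all genes, 0.76% were called and 46% lay below 0. The medians of the lists are given because such cells can shift bulk levels. The median difference was 0.05 for double positive thymocytes, 0.19 for single positive and -0.16 for double negative ones. It was -0.46 for neutrophils (-0.11 at 2 h and -0.77 at 4 h, -0.08 for P72 and -0.77 for R72), with 17 of 20 below 0, and -0.37 for B cells, with 11 of 14 below 0. Macrophage markers had 0.30 and thymic epithelial markers 0.41, which was 0.81 for P72 and 0.06 for R72. The summed level of erythroid markers was 7.13 on both untreated p53+/+ arrays and 4.46 and 6.69 on the irradiated ones, against 5.32 to 6.34 and 4.17 to 6.58 in the knock-in. The part of these cells in the called differences was not tested. None of the neutrophil or B cell markers had an adjusted p below 0.156 by limma, although 1 and 3 had an unadjusted p under 0.05.

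By time, 48 genes (0.235%) were called at 2 h, 11 higher (0.0539%) and 37 lower (0.181%), and 71 (0.348%) at 4 h, 9 higher (0.0441%) and 62 lower (0.304%). At an unadjusted p under 0.05 there were 1770 and 1290. The 48 and 71 are the same results as those given above without the p53+/+ array at 4 h and at 2 h. The adjusted counts became 13 and 34 without the first untreated p53+/+ array and 17 and 39 without the second, and that at 2 h became 29 without replicate 1 of P72 at 2 h. Each of these rests on 1 irradiated p53+/+ array, assumed to vary as the other groups do, and both share the untreated arrays. Brunol5, an RNA-binding protein, had a difference of -1.18 at 2 h and -2.42 at 4 h. Over both times it was -1.80, while a dimmer probe of Brunol5 gave -0.02. Tnfrsf14, a receptor of lymphocytes, had -1.57 at 2 h and -0.34 at 4 h, and Ddr1 had 1.64 and 0.63. Whether the difference changed between 2 h and 4 h was not tested.

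For P72 alone against p53+/+, 113 genes (0.554%) were called, 28 higher (0.137%) and 85 lower (0.417%). For R72 alone, 139 (0.682%) were called, 25 higher (0.123%) and 114 lower (0.559%). These became 23 and 48 without the p53+/+ array at 4 h, 41 and 70 without the one at 2 h, and 39 and 57 without the second untreated one. The count for P72 became 72 without the first untreated p53+/+ array, and 75 and 69 without untreated P72 replicates 3 and 4. Both comparisons share all 4 p53+/+ arrays, so their values are only set side by side. The difference of Ercc5 was -0.86 in both, and that of Bfsp2 was 2.39 in both. That of Robo3 was -2.68 and -3.37, and that of Plk2 was -1.30 and -2.43. For Cdkn1a it was -0.19 in P72 and -1.03 in R72, and for Casp4 0.03 and -0.94, neither of them called in either comparison. The Cdkn1a response itself was 4.35 in P72 and 3.52 in R72, and P72 was not tested against R72 here.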

How the data were processed

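Per the labels' protocols, TRIzol and RNeasy columns gave total RNA, which was labelled with Cy3 for 1-colour Agilent mouse arrays. The deposited scanner files hold processed spot intensity as Agilent Feature Extraction wrote it (9.5.3 per the submitters' processing notes, 9.5.3.1 per the file headers). The authors' deposited table of log2 values for the same arrays, whose scaling and centring are not stated, served only as an alternative.

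Of 43379 spots beside 1639 control spots, those of 1 probe were averaged (41174 probes, 245 on several spots), and 0.212% of values, with an outlier flag, were missing. From each log2 processed intensity the array's own 75th percentile was subtracted. A probe was kept if well above background on 4 or more of the 28 arrays, and the brightest by mean stood for its gene name (22951 probes named through an accession match, 28786 names). In all, 6 genes lacking a value in a group were left out. No spot was saturated (0 on any array). In the bounds, the dim side is the higher, per array, of its own signal and the lowest signal well above background.

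limma 3.58.1 (R 4.3.3) fitted 9 group means over 28 arrays (19 residual degrees of freedom, lmFit and eBayes, two-sided, Benjamini-Hochberg over 20391 genes, threshold 0.05). Values after ± are standard errors. The p53-/- values come from a fit of all 32 arrays. On simulated data with 200 of 20391 genes changed in this difference, 89 were called, 3 of them falsely, with 5.97%, 50.7% and 72.7% recovered at 1.5-fold, 2-fold and 4-fold. The simulated noise was independent between genes, and no effect of slide, sex or genetic background on the responses was simulated. The 3 false calls are thus no measure of false calls in these data. The number of arrays limits the precision. Named genes were a fixed set of p53 and immune targets, up to 12 each way with the largest called difference that were measured on all sides, up to 3 each way for 2 h and 4 h, up to 5 each way by bound, and up to 4 per list by smallest p or by largest knock-in response; others are said to have been named after their values were seen, and 1 gene is not reported here. The members and lists were chosen with earlier results of these data known. The alternatives changed the background correction, scaling, filter, slide block, sex and scan set, and left out each array. Promoter letters come from RefSeq (GRCm38.p6).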

Additional observations from a re-analysis of the deposited data

Results flagged for a closer look

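The contrast between the sets is itself a difference between groups under the same treatment, tested as an interaction by limma. Over both times it called 32 genes higher and 123 lower in the knock-in. At 2 h it called 11 higher and 37 lower, and at 4 h 9 higher and 62 lower. For P72 alone it called 28 higher and 85 lower, and for R72 alone 25 higher and 114 lower.

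Within the knock-in, 126 groups of 4 arrays were checked for 21 genes, and in 7 of them 1 array lay apart from the other 3 by more than Dixon's critical value allows. Chance flags about 5% of groups. Cox6b2 was at 2.514 in P72 at 2 h, replicate 4, against 2.299 to 2.313 in the other 3. Plk2 was at -1.231 in R72 at 4 h, replicate 3, against -0.775 to -0.744. Polk was at 1.033 in R72 at 4 h, replicate 1, against 0.929 to 0.946. H60 was at 0.557 in P72 untreated, replicate 3, against 1.035 to 1.128, and at 0.591 in R72 at 4 h, replicate 1, against 1.930 to 2.079. Cad was at 2.136 in P72 untreated, replicate 4, against 1.785 to 1.836, and at 0.684 in R72 at 4 h, replicate 4, against 0.896 to 0.914. These gaps are small beside the differences between the sets for Cox6b2, Plk2, Polk, H60 and Cad.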

How the results depend on the processing

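Of the 155 differences over both times, 124 stayed called whichever of the 24 knock-in arrays was left out. For the 4 p53+/+ arrays this number was 24. Under these and all other settings except normexp, 15 stayed called wherever the gene was tested. A setting that did not test a gene was counted as keeping it. The normexp setting kept 30 of the 155, and the cause was not tested. For the called named genes, 634 values under other settings kept their direction and call, 162 kept the direction but lost the call, and 1 reversed, Paqr9 at -0.048 under normexp. normexp gave 30 calls (3 higher and 27 lower) for the difference, 3553 for the knock-in response, 855 for the p53+/+ response, 2 at 2 h, 14 at 4 h, 14 for P72 and 29 for R72. With its background capped, a setting chosen after seeing the data, it gave 47 at 4 h, 71 for P72 and 85 for R72. Quantile normalization gave 96 at 2 h. Centring on array medians, which moved the median response of all genes to -0.264 in the knock-in and -0.296 in p53+/+, gave 7669 for p53+/+, 23 at 2 h, 41 at 4 h and 69 for R72. The authors' deposited table gave 135 at 2 h, 127 at 4 h and 178 for P72. No filter on dim probes gave 21 at 2 h, 44 at 4 h and 62 for P72, and probes above background on all arrays 8013 for the knock-in response and 73 at 2 h. Slide as a fixed block gave 88 over both times, 41 at 4 h, 40 for P72 and 84 for R72, and as a random block 113 at 2 h and 107 at 4 h. The knock-in arrays of scan set 1 gave 78 over both times, 40 at 4 h, 35 for P72 and 51 for R72, and those of set 2 gave 37 at 4 h, 73 for P72 and 77 for R72.

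The share of upward calls was 63.5% in the knock-in and 58.4% in p53+/+, and after median centring 29.1% and 17.8%, with the authors' deposited values 49.4% and 47.4%, and with probes above background on all arrays 47.7% and 45.5%. In the knock-in it was 45% under normexp and 52.4% under quantile normalization. Deviations of same-numbered knock-in arrays had a median correlation of 0.127, with 36 of 60 pairs over 0.1, against -0.0307 and 22 of 180 for different numbers, and the sex read from Xist and Ddx3y followed the number. Not every pair was over 0.1, and the labels do not say that a number marks a shared experiment, so the block was not part of the main model. With the replicate block 223 differences were called, 151 of them among the 155, with 97 at 2 h, 100 at 4 h, 177 for P72 and 198 for R72, and Plk2 was no longer called. Leaving out 1 array at a time gave 48 to 190 calls over both times, 11377 to 12455 for the knock-in response, 1042 to 5649 for p53+/+, 13 to 67 at 2 h, 34 to 88 at 4 h, 23 to 137 for P72 and 48 to 156 for R72. The low ends came from p53+/+ arrays for all of these but the knock-in response, whose low end came from the untreated P72 replicate 1. Among knock-in arrays, P72 at 2 h, replicate 1, gave 29 at 2 h, and the untreated P72 replicates 3 and 4 gave 75 and 69 for P72 alone. Signal limits dim genes, which have only a bound on a side not above background.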
